A study of Drosophila melanogaster with 4 samples.

Results

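U is the sequence in which FlyBase release 5 of the Drosophila melanogaster genome gathers scaffolds that were not placed on a chromosome. All H3K9me3 enrichment clusters that the authors called on U were taken, with no threshold of width or score. U held 1143 of the 3258 clusters of ChIP replicate 1, 1057 of the 3287 of ChIP replicate 2 and 790 of the 4060 of the list called for the replicate set, here the joint list. Over the 3 lists that is 2990 of 10605 clusters. The separate sequence Uextra was not included. All 4 samples came from nuclei of wild-type larvae of strain Oregon-R-modENCODE at the third instar. The 2 ChIP libraries were precipitated with what the labels call a new lot of an antibody against H3K9me3, and the 2 input libraries served as their background. No list of the inputs was analysed here, and the sources give no read totals, so the depth behind each cluster is unknown. The labels do not say whether the replicates came from separate animals, so the standard deviations may measure technical spread.

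H3K9me3, trimethylated lysine 9 of histone H3, is the mark of constitutive heterochromatin. In Drosophila it is placed by methyltransferases such as eggless and is bound by the protein HP1a, and it lies over satellite arrays and transposon-rich sequence around the centromeres, on the Y chromosome and on most of the small chromosome 4. Such sequence assembles poorly, and much of what assembles without a chromosomal place is therefore repetitive. Whether U is rich in repeats was not examined here, since no sequence of release 5 was used, and the sources used here do not give the order of scaffolds along U. Positions on U below are thus addresses in the assembly, not places on a chromosome.

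U is 7.19% of the length of the 13 sequences with clusters. It held 35.1% of the clusters and 27.4% of the covered bases of replicate 1, and 32.2% and 28.3% of those of replicate 2. In the joint list it held a smaller share of the clusters, 19.5%, but a like share of the covered bases, 27.9%. The covered length on U was 6.16 Mb in replicate 1, 6.93 Mb in replicate 2 and 8.15 Mb in the joint list. These are coverages of 61.3%, 69.0% and 81.1% of U.

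Clusters on U were many, and shorter than those of the heterochromatic scaffolds as a whole, though not short for the whole of each list. Replicate 1 had 114 of them per Mb and replicate 2 had 105, a mean of 109 ± 6.05 (SD, n = 2). The middle 50 percent of widths ran from 2088 to 5658 bp in replicate 1 and from 2345 to 6815 bp in replicate 2, with medians of 3242 and 4024 bp. The medians over all clusters were lower, 2582 and 2731 bp. Clusters under 2 kb were 18.1% and 14.5% of those on U and 30.2% and 28.9% of all. The widest cluster was 78.6 kb in replicate 1 and 91.4 kb in replicate 2. Clusters of 10 kb or more were 10.9% of those on U in replicate 1, where 13.6% of all clusters reached that width, and 16.0% in replicate 2, where 14.7% of all did. These few wide clusters held 41.5% of the covered bases of U in replicate 1 and 49.7% in replicate 2. In the joint list 29.0% of the clusters on U reached 10 kb, against 12.8% of all clusters, and they held 68.7% of the covered bases.

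U was compared with the 6 heterochromatic scaffolds, XHet, YHet, 2LHet, 2RHet, 3LHet and 3RHet, which hold pericentromeric and Y sequence that was assigned to a chromosome. Together they are 9.28 Mb long, close to the 10.0 Mb of U. Coverage of U was lower than that of the 6 as a whole in both replicates, 61.3% against 78.9% in replicate 1 and 69.0% against 81.2% in replicate 2, a mean difference of -14.9 percentage points ± 3.85 (SD, n = 2). The clusters on U were more numerous, 114 per Mb against 43.8 in replicate 1 and 105 against 37.7 in replicate 2, a mean difference of 68.7 per Mb ± 1.71 (SD, n = 2). The median width on U was 3242 bp against 8075 bp in replicate 1 and 4024 bp against 9706 bp in replicate 2. Each of these differences was larger than the spread between replicates, but an exact two-sided sign-flip permutation test over 2 replicates gave p = 0.5 for each, the smallest p that 2 replicates allow. In the joint list the coverage of U differed from that of the scaffolds by -3.31 percentage points, 81.1% against 84.4%, while the number of clusters stayed apart at 78.6 against 27.3 per Mb.

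**Figure D1:**
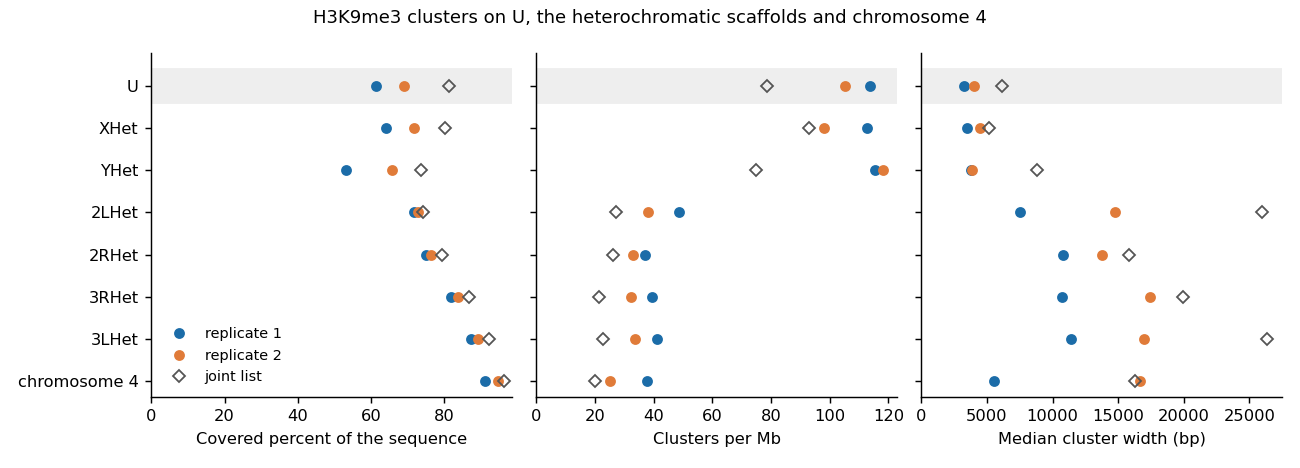
Covered percent, clusters per Mb and median cluster width (bp) on U (grey band), on each heterochromatic scaffold and on chromosome 4. Filled points are the 2 replicates and open diamonds the joint list. In clusters per Mb, U lies beside XHet and YHet, with 98.0 to 118 in the replicates, and apart from the 4 autosomal scaffolds, with 32.2 to 48.8. XHet and YHet are short, at 0.204 and 0.347 Mb.

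The scaffolds were not alike among themselves. XHet, from the X chromosome, had 113 and 98.0 clusters per Mb in replicates 1 and 2, and YHet, from the Y chromosome, had 115 and 118. Those counts are near the 114 and 105 of U. XHet and YHet are short, at 0.204 and 0.347 Mb. Their values rest on 23 and 20 clusters on XHet and on 40 and 41 on YHet. The 4 autosomal scaffolds had between 32.2 and 48.8 clusters per Mb. Coverage differed among them too. It was 64.0% and 71.8% on XHet, so that U differed from it by -2.71 and -2.82 percentage points. On YHet it was 53.1% and 65.7%, below U by 8.25 and 3.32 points, so U was not below every scaffold. The autosomal scaffolds ranged from 71.6% on 2LHet to 87.2% on 3LHet in replicate 1 and from 72.9% to 89.1% in replicate 2. In the joint list U, at 81.1%, was above XHet (80.2%), YHet (73.7%), 2LHet (74.3%) and 2RHet (79.4%), and below 3LHet and 3RHet (92.1% and 86.6%). Median widths followed the split in cluster number, with 3496 and 4447.5 bp on XHet, 3819.5 and 3851 bp on YHet, and 7534 bp or more on each autosomal scaffold. The difference in width between U and YHet changed sign between the replicates (-577.5 bp and 173 bp), so these were not told apart. Scores differed between U and XHet. The median was 2.43 on U and 1.06 on XHet in replicate 1, and 2.45 against 1.23 in replicate 2.

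**Figure D2:**
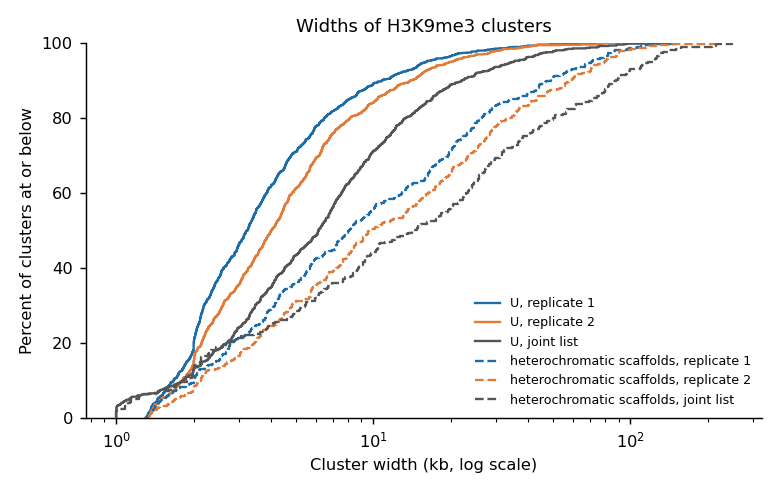
Percent of clusters at or below each width (kb, log scale), on U (solid lines) and on the 6 heterochromatic scaffolds together (dashed lines), with 1 line per list. At 10 kb the solid lines stand at 89.1% and 84.0% in replicates 1 and 2 and the dashed lines at 55.5% and 50.3%.

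The sequence between clusters was then described. U had 1144 stretches without a cluster in replicate 1 and 1058 in replicate 2, with medians of 1896 and 1682.5 bp. Stretches of 1 kb or less made up 32.6% of them in replicate 1 and 35.4% in replicate 2. The joint list had 789 stretches with a median of 1100 bp, and 47.5% were 1 kb or less. A total of 1.88 Mb, 18.7% of U, had no cluster in any of the 3 lists.

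A single stretch stood out by its width. In replicate 1 it ran from 691169 to 816033 on U (124.9 kb), in replicate 2 from 695378 to 816014 (120.6 kb) and in the joint list from 695346 to 815906 (120.6 kb). Its right edge lay within 127 bp in the 3 lists and its left edge within 4209 bp. The next widest stretch on U was 31.0 kb in replicate 1, 30.3 kb in replicate 2 and 20.0 kb in the joint list. The clusters on both sides had scores of 2.21 and 2.17 in replicate 1, 1.77 and 2.15 in replicate 2, and 2.26 and 2.27 in the joint list. Stretches of this order were not limited to U: 2RHet had 113.3 and 103 kb in replicate 1 and 113.4 and 102 kb in replicate 2. Leaving the stretch out raised the coverage of U from 65.2% to 65.9% only, an alternative added after the data were seen.

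The other 4 of the 5 widest stretches of the joint list had no covered base in either replicate. They ran from 1110387 to 1130362 (20.0 kb), from 5288125 to 5305791 (17.7 kb), from 430376 to 444978 (14.6 kb) and from 2160058 to 2171565 (11.5 kb). The 20.0 kb stretch lay directly beside a joint cluster of 137.2 kb, and the 14.6 kb stretch beside one of 88.5 kb, so wide covered and wide uncovered sequence met there.

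Coverage varied along U, with high and low bins in much the same order in both replicates. Over 101 bins of 100 kb, it had a lowest value of 0%, a median of 61.2% and a highest value of 93.0% in replicate 1, and 0%, 71.0% and 97.8% in replicate 2. The bin at 0% was the same in all 3 lists and lies inside the widest uncovered stretch. The next lowest bin was covered at 23.9% in replicate 1, 26.8% in replicate 2 and 39.2% in the joint list. The Spearman correlation of coverage between the replicates was 0.934 across the bins, which share their libraries and are no replicates. Coverage exceeded 50 percent in 71 bins of replicate 1, 88 of replicate 2 and 95 of the joint list.

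The profile fell, rose sharply and fell again. Coverage of the first Mb was 74.7% in replicate 1, 78.0% in replicate 2 and 82.1% in the joint list. In the fifth Mb it was 41.0%, 46.4% and 55.4%, the lowest of the full Mb windows in each list. In the seventh Mb it was 74.0%, 82.3% and 94.5%. The lists then parted. In the tenth Mb replicate 1 was at 45.6% and replicate 2 at 62.8%, whereas the joint list was at 86.8%.

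**Figure D3:**
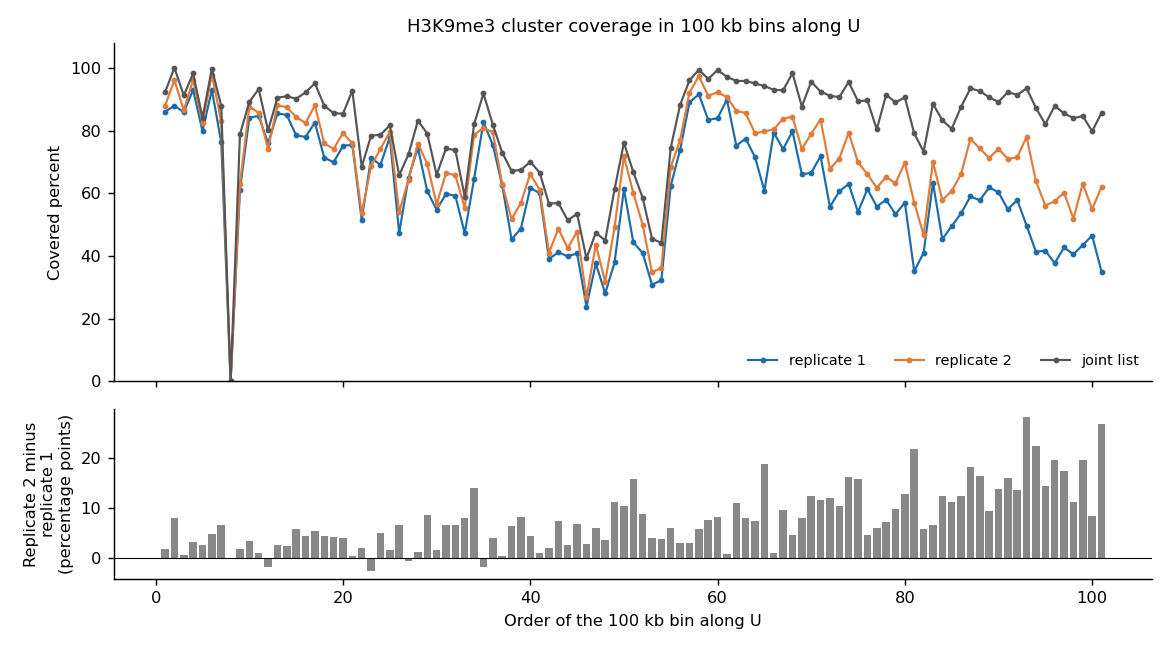
Upper panel, covered percent of each 100 kb bin in the order of the bins along U, for both replicates and the joint list. Lower panel, replicate 2 minus replicate 1 in percentage points. The 3 lines run together in the first bins and separate towards the end, where the largest difference is 28.3 points.

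Replicate 2 covered more than replicate 1 in 96 bins and less in 4, by at most 2.58 percentage points. The excess of replicate 2 grew along U, with a Spearman correlation of 0.720 between the order of the bin and the difference. U was split at its midpoint into a left part, positions 1 to 5024518, and a right part, the rest. The excess was 4.09 percentage points in the left part (63.8% against 67.9%) and 11.3 in the right part (58.8% against 70.1%). The 5 bins with the largest differences all lay beyond 8 Mb. The largest was in the bin from 9200001 to 9300000, at 49.7% in replicate 1, 78.0% in replicate 2 and 93.5% in the joint list. In the bin from 9500001 to 9600000 the values were 37.7%, 57.5% and 87.8%. The excess of the joint list over the replicate mean likewise went from 9.55 points in the left part to 22.4 in the right part.

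Clusters became shorter and denser along U. In replicate 1 the right part had 147 clusters per Mb and the left part 80.2, and in replicate 2 they had 142 and 68.9. The mean difference was 69.9 per Mb ± 3.94 (SD, n = 2), with an exact two-sided sign-flip p = 0.5. The median width was 6240 bp in the first Mb and 2173 bp in the tenth in replicate 1, and 14640 and 2711 bp in replicate 2. Coverage of the left and right parts could not be told apart across replicates, with a difference of -5.00 percentage points in replicate 1 and 2.17 in replicate 2 (exact two-sided sign-flip p = 1). The median score was higher in the right part, 2.53 against 2.27 in replicate 1 and 2.52 against 2.36 in replicate 2. The midpoint split and the windows were chosen with results of these data known.

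Scores on U were high for their list, and few were low. The score is the authors' own value for each cluster, on a scale that was not stated, and was compared only within a list. The median was 2.43 in replicate 1, 2.45 in replicate 2 and 2.38 in the joint list, against 0.709, 0.698 and 0.483 on the 5 large chromosome arms. Only 8 clusters on U had a score under 1 in replicate 1, which is 0.700% where 39.4% of all clusters did. In replicate 2 the count was again 8, 0.757% against 43.3%, and in the joint list it was 12, 1.52% against 63.5%. The scores of the heterochromatic scaffolds were nearer, with medians of 2.25, 2.37 and 2.37. Low scores were few on the scaffolds too, with 3.44%, 2.86% and 4.74% of clusters under 1. On 2LHet, 3LHet and YHet 0 clusters were under 1 in either replicate, while XHet stood at 47.8% and 45.0%. The scores on U ran from 0.290 to 6.02 in replicate 1 and from 0.390 to 6.01 in replicate 2, and the highest score of each replicate list lay on U. Their SD was 0.718 and 0.655, against 0.563 and 0.569 on the scaffolds and 0.624 and 0.659 on the large arms.

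The upper end of the scores lay mostly on U in the replicates. A score of 3 or more was reached by 247 clusters on U in replicate 1, 21.6% against 8.90% of all clusters, and by 215 in replicate 2, 20.3% against 8.52%. U thereby held 85.2% of all such clusters of replicate 1 and 76.8% of those of replicate 2. Many of these scores were not distinct values. Of the 247 and 215, 157 (63.6%) and 100 (46.5%) had exactly the score of another cluster on U. Among all clusters on U the shares were 49.1% and 36.7%. On all scaffolds as 1 set 5.65% and 10.3% of clusters reached 3, and single scaffolds ranged widely. On 3LHet the share was 7.62% in replicate 1 and 19.8% in replicate 2, near the 20.3% of U, and on 2RHet it was 5.74% and 13.9%. On 2LHet (18 and 14 clusters) and YHet (40 and 41 clusters) 0 clusters reached 3 in either replicate. In the joint list 13.4% of the clusters on U did, against 4.88% of all, and U held 53.5% of them. The scaffolds were at 12.3% there, so the distance seen in the replicates, a mean of 13.0 percentage points ± 4.17 (SD, n = 2), was down to 1.16 points. The share on 2RHet in the joint list, 17.4%, was above that of U.

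**Figure D4:**
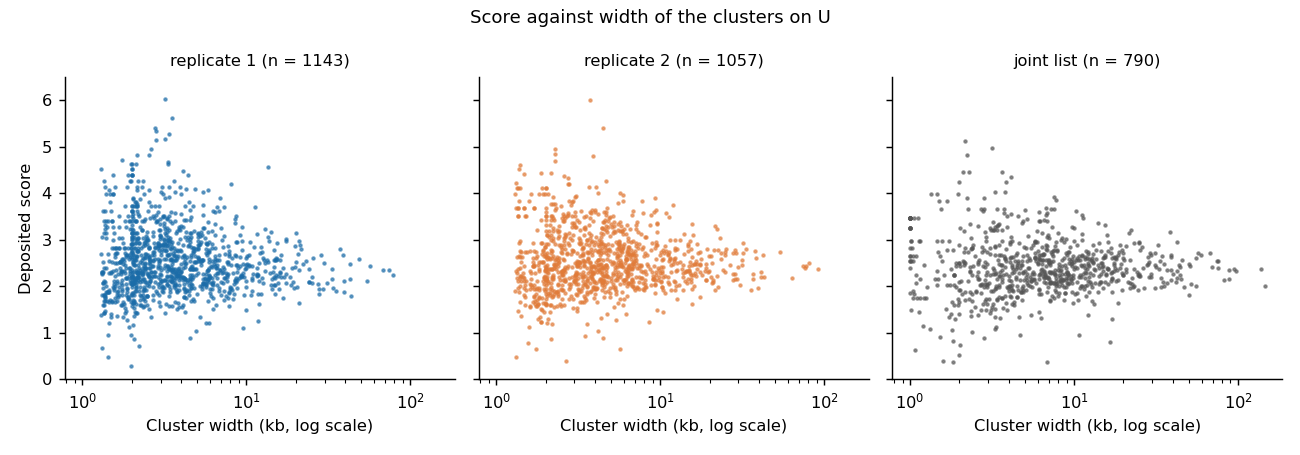
Deposited score against cluster width (kb, log scale) for every cluster on U, with 1 panel per list. The points spread from under 1 to about 6 at widths of 2 to 4 kb and close in on 2 to 3 at the widest clusters.

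Score and width were almost uncorrelated in rank on U, with Spearman correlations of -0.03 in replicate 1, 0.02 in replicate 2 and -0.004 in the joint list. The spread of scores changed with width instead. Among clusters under 2 kb the SD of the score was 0.826 in replicate 1 and 0.844 in replicate 2, and among those of 16 kb or more it was 0.351 and 0.304. The median differed little between these classes, 2.30 and 2.30 in replicate 1 and 2.28 and 2.43 in replicate 2. The highest scores belonged to short clusters. The 50 highest-scoring clusters of replicate 1 on U had a median width of 2448 bp, and those of replicate 2 a median of 2285.5 bp.

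Scores of neighbouring clusters on U were only weakly related. The Spearman correlation between a cluster and the next was 0.102 on U and 0.380 on the heterochromatic scaffolds in replicate 1, and 0.079 and 0.346 in replicate 2. In the joint list the values were closer, 0.121 and 0.177. Chromosome 4, with few neighbours, had correlations of 0.484 (50 pairs, replicate 1) and 0.095 (33 pairs, replicate 2). Among neighbours 1 kb or less apart in the replicates the correlation was 0.091 and 0.126 on U, and 0.495 and 0.362 on the scaffolds. The median absolute difference between neighbours was 0.560 and 0.528 on U and 0.316 and 0.321 on the scaffolds. The scaffold correlations pool neighbours from scaffolds that differ in score level, whereas U is a single sequence. The median score was 1.06 on XHet in replicate 1, against 2.25 on all scaffolds, and 1.23 against 2.37 in replicate 2. How far such differences in level contribute to the scaffold correlations, and so to their distance from U, was not tested. Neighbours are not independent, and no test was made.

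The replicate lists were next set side by side on U. Of the clusters of replicate 1, 1095 (95.8%) overlapped replicate 2 by at least 1 bp, where 90.5% of all clusters did. Of those of replicate 2, 924 (87.4%) overlapped replicate 1, where 78.5% of all did. The heterochromatic scaffolds stood above U, at 98.8% and 92.6%, and the large arms below, at 84.5% and 70.6%. The Jaccard index of the replicates (bases in both over bases in either) was 0.793 on U and 0.833 over all sequences. It was 0.952 on the scaffolds, 0.959 on chromosome 4 and 0.751 on the large arms. Both lists covered 5.79 Mb of U. Replicate 1 alone covered 0.372 Mb and replicate 2 alone 1.14 Mb, so most of the unshared sequence was added by replicate 2. That was not particular to U. The ratio of the 2 lengths was 3.08 on U, 3.58 on the scaffolds, 22.8 on chromosome 4 and 2.38 on the large arms. The 48 clusters found in replicate 1 only were short, with a median of 1828.5 bp, and so were the 133 found in replicate 2 only, with a median of 2010 bp. Their median scores were 2.81 and 2.63, not below those of the overlapping clusters (2.40 and 2.44). Of the 133 clusters of replicate 2 only, 104 (78.2%) lay in the right part of U, which held 67.3% of all its clusters on U.

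The edges of clusters, the positions where a called cluster starts and stops, were compared as well. A start or end of replicate 1 lay within 100 bp of the same kind of edge in replicate 2 in 433 of 2286 cases (18.9%), against 24.6% over all sequences, 26.0% on the heterochromatic scaffolds and 28.2% on the large arms. The median distance to the nearest such edge was 541.5 bp on U, 372 bp on the scaffolds and 273 bp on the large arms. On chromosome 4, with 102 edges, 21.6% lay within 100 bp and the median distance was greater than on U, 1177.5 bp. Exact matches were rare everywhere, with 5 edges on U (0.219%) against 0.737% on the scaffolds and 0.292% over all sequences. U has more edges per Mb than the scaffolds or the large arms, so a near edge was more often at hand there. These are values for 1 pair of libraries, and no test was made.

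**Figure D5:**
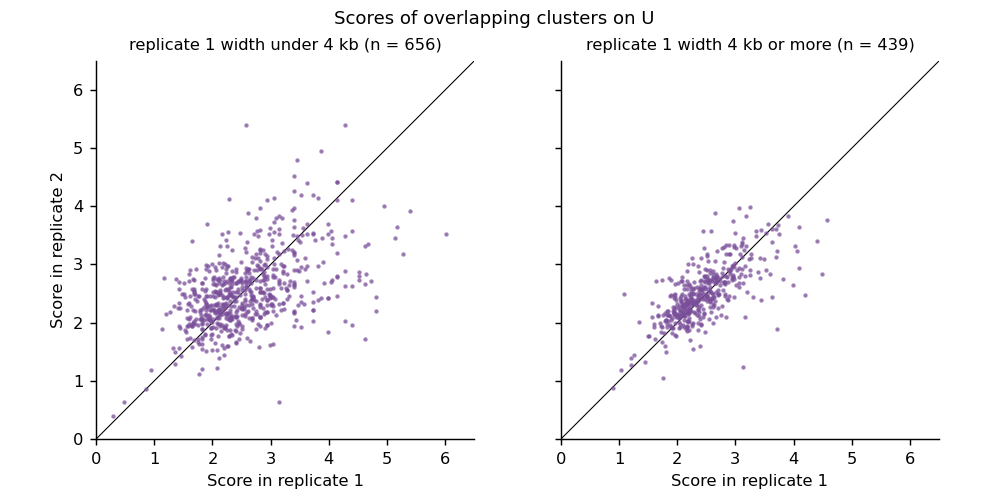
Score in replicate 2 against score in replicate 1 for the 1095 overlapping pairs on U, split by the width of the replicate 1 cluster at 4 kb. A replicate 2 cluster can stand in several pairs. The line marks equal scores. The cloud is wide for the short clusters and close to the line for the wide ones.

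Score ranks were shared between replicates for wide clusters and less so for short ones. Across the pairs on U, the Spearman correlation was 0.440 for replicate 1 clusters under 2 kb (179 pairs) and 0.511 for those from 2 to 4 kb (477 pairs). It was 0.684 from 4 to 8 kb (265 pairs), 0.768 from 8 to 16 kb (115 pairs) and 0.860 at 16 kb or more (59 pairs). On the scaffolds the same classes gave 0.583, 0.584, 0.804, 0.858 and 0.904. Pairs share their libraries, and these correlations carry no p-value.

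The highest scores mostly differed between the replicates. Of the 50 highest-scoring clusters of replicate 1 on U, 45 overlapped a cluster of replicate 2, but only 8 overlapped 1 of its own 50 highest, and the median rank there was 169 of 1057. Of the 50 of replicate 2, 34 overlapped replicate 1 and 7 were matched to its 50 highest. The highest score of replicate 1, 6.02 from 4155933 to 4159144 (3.21 kb), met a cluster of score 3.52 in replicate 2. The highest of replicate 2, 6.01 from 6422106 to 6425828 (3.72 kb), lay inside a 10343 bp cluster of score 2.44 in replicate 1. Whether the scores of the lists are on 1 scale was not stated, so ranks carry this comparison. All 50 clusters of each replicate overlapped the joint list.

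The joint list joined clusters of the replicates on U and added sequence around them. It had 0.718 times the mean number of replicate clusters there, against 0.668 times on the heterochromatic scaffolds and 1.71 times on the large arms. Of the 790 joint clusters on U, 248 (31.4%) overlapped 2 or more clusters of replicate 1, against 13.2% of all joint clusters, and 243 (30.8%) overlapped 2 or more of replicate 2, against 11.7%. The former made 774 overlaps with the 1143 clusters of replicate 1, a cluster being counted once for each joint cluster that it met. Up to 10 clusters of replicate 1 and up to 7 of replicate 2 met a single joint cluster.

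On U 594 joint clusters overlapped both replicates, 75.2% against 48.7% over all sequences, and 109 overlapped neither, 13.8% against 31.2%. The median width was 7983.5 bp for the former and 1461 bp for the latter. The joint list alone covered 0.861 Mb of U. Of this, 23.5% lay between clusters of the same replicate that 1 joint cluster spanned, and 21.8% in clusters that overlapped neither replicate. The remaining 54.8% lay elsewhere in joint clusters that met a replicate. It was at outer flanks or between a cluster of replicate 1 and a cluster of replicate 2. The joint list rests on the same libraries, so this is no independent check of the replicates.

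The 5 widest joint clusters on U were nearly full in both replicates. The widest ran from 95136 to 240705 (145.6 kb, score 2.01). Replicate 1 covered 88.7% of it with 8 clusters and replicate 2 95.9% with 7, the widest of them 43760 and 29607 bp. The second, from 1130363 to 1267582 (137.2 kb, score 2.38), was covered at 97.0% by 5 clusters and at 96.6% by 4. The next 3 ran from 543410 to 640351 (96.9 kb), from 5730281 to 5824523 (94.2 kb) and from 341833 to 430375 (88.5 kb), and were covered at 96.5% or more in each replicate. Of the 5, 4 lie in the first 2 Mb of U and 1 in the sixth Mb. The widest cluster of replicate 1 (from 351641 to 430222) and that of replicate 2 (from 5730679 to 5822076) lie within these.

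The 5 highest-scoring joint clusters on U were short and mostly absent from replicate 1. The highest, 5.12 from 1302454 to 1304604 (2.15 kb), was covered at 61.5% in replicate 2 and at 0% in replicate 1. The second, 4.98 from 7138073 to 7141251 (3.18 kb), had no covered base in either replicate. The third, from 9164528 to 9166751, and the fifth, from 8012723 to 8014815, were covered in replicate 2 at 90.0% and 72.2% and in replicate 1 at 0%. The fourth, from 4155654 to 4159293 (score 4.47), was covered in both, at 88.2% and 83.3%, and holds the highest-scoring cluster of replicate 1. Replicate 1 therefore had no cluster at 4 of these 5 positions.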

How the data were processed

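Per the labels' protocols, nuclei were crosslinked with formaldehyde, chromatin was sonicated and fragments held by the antibody were pulled down with protein A. The authors deposited clusters of significant enrichment with a score per cluster, 1 list per ChIP library and 1 for the replicate set, on FlyBase release 5 per the file headers. Bowtie 0.12.7 is named in the submitters' processing notes without its role. The caller, its threshold, the scale of the score and the handling of reads that match repeats are not stated there or in the labels. Any of these could change coverage and cluster breaks on unplaced sequence.

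Groups came from sample titles. Clusters on U were clipped to its length (1 joint cluster, by 544 bp). Coverage, widths, gaps, overlap at 1 bp or more, edges matched within 100 bp and bins of 100 kb were computed in Python 3.11.15. The packages were numpy 2.4.6, scipy 1.17.1 and pandas 2.3.3. Coverage, the Jaccard index, overlap, merging, edge distances and total uncovered length were tested on simulated data, and widths and bins were not. U was compared with the scaffolds within each replicate by an exact sign-flip test. Regions were named as the 5 widest and 5 highest-scoring joint clusters, the 5 widest uncovered joint stretches, the 5 bins that differed most between replicates and the widest replicate clusters. The highest-scoring cluster of each replicate was named after its value was seen. Members, regions and comparisons were chosen with earlier results of these data known. Alternatives were a score limit, merging of clusters, the joint list, leaving out a replicate and leaving out YHet. The gene table is on release 6, so no gene was placed on U.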

Additional observations from a re-analysis of the deposited data

How the results depend on the processing

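Over 7 results, 35 alternatives were run. The 13 alternatives of the 2 differences between U and the scaffolds kept their sign, and the other 5 results are quantities that cannot change sign. Of the 35, 12 left out 1 of 2 replicates, where the mean stays within 1 SD by construction. In the remaining 23, the shift exceeded the SD between replicates (for the Jaccard index, 0.005) 15 times and stayed below it 8 times. Merging clusters 1000 bp or less apart gave 72.2 clusters per Mb, a median width of 5259.5 bp, a median score of 2.47, a difference from the scaffolds of 47.3 clusters per Mb and a Jaccard index of the replicates (bases in both over bases in either) of 0.806, against 0.793 as deposited. Fewer and wider clusters follow from merging itself. The joint list gave 81.1% coverage, 78.6 clusters per Mb, a median width of 6132 bp, a median score of 2.38 and differences from the scaffolds of -3.31 percentage points and 51.4 clusters per Mb. Clusters at or above the median score of their list gave 103 clusters per Mb, a difference of 66.6 and a Jaccard index of 0.756. Leaving YHet out of the scaffolds gave a difference of 71.6 clusters per Mb. The causes of these other changes were not tested. The sign-flip p cannot fall below 0.5 with 2 replicates and says nothing about stability. No paired analysis was possible between ChIP and input samples because no list of the inputs was analysed here. The comparison of U with the scaffolds was made within each replicate, between sequences of the same library. With no read totals, how far depth limits these values is unknown.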

Other observations

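Many clusters on U carried exactly the same score as another cluster on U in the same list, to within 1e-06. In replicate 1 they were 561 of 1143 (49.1%), in replicate 2 they were 388 of 1057 (36.7%), and in the joint list 175 of 790 (22.2%). On the large arms, with more clusters and so more chances to match, the shares in the replicates were 17.0% and 14.6%, and in the joint list 19.1%. On the heterochromatic scaffolds, with fewer clusters (407, 350 and 253) and so fewer chances to match, the shares were 9.34%, 5.71% and 8.70%. The clusters with a shared score on U were short, with medians of 2167 bp in replicate 1 and 2268 bp in replicate 2, against 5067 and 5522 bp for the rest. Among clusters of 10 kb or more, 5 of 125 and 5 of 169 had a shared score. Among those with a score of 3 or more, 157 of 247 and 100 of 215 did. The most frequent score in replicate 1 was 2.81 on U, held by 24 clusters between 1521 and 6483 bp wide. In the same list it was 1.81 on the scaffolds and 0.815 on the large arms. Of the clusters with a shared score on U, 421 of 561 (75.0%) in replicate 1 and 305 of 388 (78.6%) in replicate 2 lay in the right part of U, beyond its midpoint, which held 64.7% and 67.3% of all clusters on U.

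The joint list holds 22 clusters on U at its narrowest width, 1001 bp, and none of the 22 overlapped a cluster of either replicate. The most frequent joint score on U, 3.47, was held by 13 clusters, of which 11 were 1001 bp wide and 0 overlapped a replicate. It was also the most frequent joint score on the large arms, where 16 clusters held it, 12 of them 1001 bp wide and all 16 in neither replicate. On the large arms 62 clusters had that width and 60 of them overlapped neither replicate. These counts were chosen after the data were seen.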
